A study of Mus musculus with 38 samples.

Results

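The RNA of fibroblasts that carried a shortened form of SALL4, SALL4-delN12, was compared with that of fibroblasts carrying full-length SALL4-WT at day 5 of culture. Every gene of the deposited expression table was taken, with no selection on its values, and short RNAs were left out. The table held 35976 genes, of which 1440 were short RNAs and 21565 had an FPKM (fragments mapped per kilobase of transcript, scaled to the mapped reads of a library) under 1 in both libraries. The remaining 12971 genes were compared. The comparison rested on 2 libraries of the 17 in the table, 1 for each form of SALL4.

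The study asked how the transcription factor SALL4, the chromatin remodelling complex NuRD and the growth factor BMP4 steer fibroblasts toward pluripotency or toward primitive endoderm, the extra-embryonic layer that builds the yolk sac. Both groups were mouse embryonic fibroblasts of embryonic day 13.5, from OG2 males, which carry a GFP reporter of Oct4, crossed with 129S4/SvJaeJ females, and embryos of either sex were used. The cells were infected with pMXs retrovirus that drove SALL4-WT or SALL4-delN12 as the single factor. Both then grew in the same medium, iCD3, with vitamin C, mLIF, bFGF, the GSK3 inhibitor CHIR99021, the DOT1L inhibitor SGC0946, an LSD1 inhibitor and the ROCK inhibitor Y27632, and neither received BMP4. Whole cultures were collected, so that cells that had responded and cells that had not, or that had escaped the virus, were measured together, and fewer cells of a type cannot be told apart from less RNA per cell. No source used here says that libraries came from separate cultures. With 1 library a side there was no spread between samples and hence no test. A gene was called higher or lower where log2(FPKM + 1) differed by at least 1, which is 2-fold on that scale.

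SALL4 is a zinc finger protein of the early embryo and of pluripotent cells. The first residues of its N terminus form a short motif that recruits NuRD, a complex that combines nucleosome remodelling with histone deacetylation and represses many of the genes to which it is brought. The deletion removes that motif and leaves the zinc fingers, so the comparison sets a SALL4 that can bring in NuRD against one that lacks the recruiting stretch.

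The start of the Sall4 coding sequence is shown because it is the place at which the 2 forms differ. It lies in exon 1 of the transcript Sall4-201, on the minus strand at chr2:168766970-168767029 of GRCm38, the assembly also called mm10. The capitals mark the codons of residues 1 to 12, and whether the construct kept the first codon is not given in the sources used here.
Sall4 coding start: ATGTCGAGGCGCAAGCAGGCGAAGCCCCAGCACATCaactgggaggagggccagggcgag

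Sall4 itself was at an FPKM of 491 with SALL4-WT and 623 with SALL4-delN12, a difference of 0.34 on the log2(FPKM + 1) scale. Total Sall4 RNA was thus not called different, but FPKM per gene separates neither the virus from the endogenous gene nor the shortened form from the full one. In the other 15 libraries of the table Sall4 lay between 194 and 971. None of the 14 NuRD subunits was called, with a median difference of 0.03, and the ATPase subunit Chd4 was at 52.5 and 50. At the 9.15% called over all genes, a list of this size would itself give few calls. The fibroblast surface markers Thy1 (66.7 and 56.1) and Pdgfra (25.4 and 23.7) were present and not called, while Pdgfrb (8.78 and 21.6) was called higher.

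Of the 12971 genes, 577 were called higher with SALL4-delN12, which is 4.45%, and 610 were called lower, which is 4.7%, or 9.15% in either direction. The median difference over all genes was -0.01, and 74.2% of genes lay within 0.5 of no difference. The calls were thus near balance in number, but the large differences were more often upward. A difference of at least 2 was seen for 155 genes that were higher and 102 that were lower, and one of at least 3 for 52 and 20. Of the genes called higher, 529 code for protein and 238 had an FPKM under 1 with SALL4-WT, 48 of them listed at 0. Of the genes called lower, 577 code for protein, and 158 were under 1 with SALL4-delN12, 13 of them listed at 0. The steps between low values of genes with 1 exon put an FPKM of 1 over 1 kb at about 15 reads in the SALL4-WT library and 18.4 in the SALL4-delN12 library, although only 50.5% and 45.4% of such values lay on a step within 1%.

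**Figure D1:**
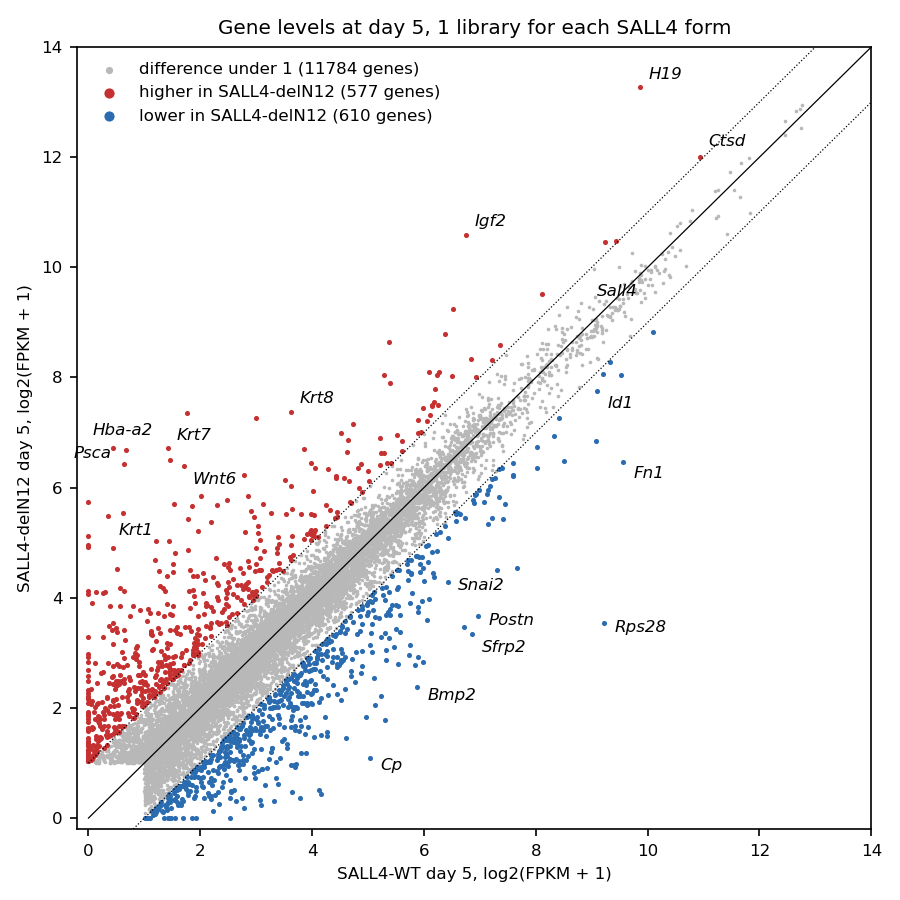
Each point is 1 gene at day 5, with its level on the log2(FPKM + 1) scale in the SALL4-WT library on the x axis and in the SALL4-delN12 library on the y axis, and dotted lines mark a difference of 1. The 577 genes called higher are red and the 610 called lower are blue. Igf2, Krt7 and Wnt6 stand far above the diagonal, and Rps28 and Fn1 far below it.

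Several epithelial genes were called higher with SALL4-delN12. Of 11 measured genes of an epithelial adhesion list, which also holds the keratins Krt8, Krt18 and Krt19, 8 were called higher and none lower. Of these 11, 3 were under an FPKM of 1 with SALL4-WT. A gene near 0 with SALL4-WT can enter only through SALL4-delN12 and is then higher by the way it entered, so counts are also given over genes with an FPKM of at least 1 with SALL4-WT, of which 339 of 12275 were called higher among all genes. Here they were 5 of 8, namely Cldn3, Cldn4, Krt8, Krt18 and Krt19, while Dsp, Spint1 and Spint2 were not called. The adherens junction protein Cdh1 was at 0.558 with SALL4-WT and 16.3 with SALL4-delN12, a difference of 3.48. The surface adhesion protein Epcam went from 0.551 to 6.51, and the tight junction claudins Cldn3, Cldn4 and Cldn6 from 65.6 to 147, 37.9 to 263 and 0.790 to 7.01. Cldn3 and Cldn4 were thus well expressed in both cultures and higher with SALL4-delN12, while Cdh1, Epcam and Cldn6 reached an FPKM of 1 with SALL4-delN12 alone. The desmosome protein Dsp, at 12 and 24.4, was just short of a call.

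Many keratins, the intermediate filament genes of epithelia, were detected with SALL4-delN12 and hardly or not at all with SALL4-WT. The table held 54 keratin genes, of which 28 reached an FPKM of 1 in either library, and 20 of these reached it with SALL4-delN12 alone. Of the 8 with an FPKM of at least 1 with SALL4-WT, 6 were called higher and none lower, against 339 and 610 of 12275 of all genes. Among these 6, Krt8, Krt18 and Krt19 were also counted in the epithelial adhesion list above. Krt8 and Krt18, the pair that forms the filaments of simple epithelia, went from 11.3 to 166 and from 82.0 to 441. Krt7, a simple epithelial keratin of ducts and trophoblast, went from 1.69 to 104, a difference of 5.29. Keratins of stratified epithelia were higher as well. Krt5, Krt14 and Krt6a were listed at 0 with SALL4-WT and reached 6.15, 15.8 and 16.3 with SALL4-delN12, and 11 of the 28 keratins were listed at 0 with SALL4-WT. Reads of the close copies within this family can be split between genes. Whether this bears on single keratins or on their count was not tested. Krt10, Krt13 and Krt23 were not called. Of the 9 genes of the keratinocyte list, 4 reached an FPKM of 1 with SALL4-delN12 alone, and the 3 that reached it in both libraries were called higher, namely Krt17 (1.76 to 5.97), the cell cycle and adhesion regulator Sfn (4.97 to 19.2) and the desmosome associated Perp (11.5 to 33.9), whereas Trp63, the factor that defines basal keratinocytes, was under 1 in both libraries. The keratin family was counted after its values were seen.

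Keratin genes lie in 2 clusters on the mouse genome. Of 36 genes of the type II cluster at chr15:101347444-102032027, 18 reached an FPKM of 1 in either library, 14 of them with SALL4-delN12 alone. The other 4, Krt7, Krt76, Krt8 and Krt18, the last a type I gene beside Krt8, were all called higher. Of 10 genes in the type I stretch at chr11:100102007-100269871, 8 reached an FPKM of 1, 6 of them with SALL4-delN12 alone, and the other two, Krt17 and Krt19, were called higher. These and the other neighbourhoods were chosen after their values were seen.

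The growth genes H19 and Igf2 were the first and the third of all genes by rise in FPKM itself. H19, an imprinted long noncoding RNA at chr7:142575529-142578143, was at 934 with SALL4-WT and 9915 with SALL4-delN12, a difference of 3.41. Igf2, the imprinted growth factor of the same locus, at chr7:142650766-142666816, was at 107 and 1542, a difference of 3.83. Both genes were therefore more than 10 times as high in one culture as in the other, with H19 the more abundant in each. Igf2os, the antisense gene that overlaps Igf2, was at 1.76 and 89.7, and its reads cannot be told apart from those of Igf2 since no source used here says that strand was counted.

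Some genes near the imprinted pair were called higher as well. The 0.294 Mb from Ctsd to Igf2os, chr7:142375911-142670356, were chosen after their values were seen and end at genes that were called higher. In this stretch 8 of 10 measured genes, H19, Igf2 and Igf2os among them, were called higher and none lower. Of the 7 with an FPKM of at least 1 with SALL4-WT, 6 were higher, against 339 of 12275 of all genes. These counts depend on where the stretch was cut. The lysosomal protease gene Ctsd was at 1951 and 4123, the leukocyte protein gene Lsp1 at 4.80 and 21.8, and the fast muscle troponin gene Tnnt3 at 0.424 and 21.9. Mrpl23, a mitochondrial ribosome gene between Tnnt3 and H19, was at 16.0 and 21.2 and was not called. Across the imprinted growth list, 5 of 10 genes were called higher and none lower, against 4.45% and 4.7% of all genes, with a median of 1.17. They included the zinc finger gene Peg3 (20.4 to 71.7), the hydrolase gene Mest (9.44 to 33.2) and the growth inhibitor Cdkn1c (15.7 to 81.3) on other chromosomes or beyond the neighbourhood, whereas Dlk1 was at 5.99 and 3.69.

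**Figure D2:**
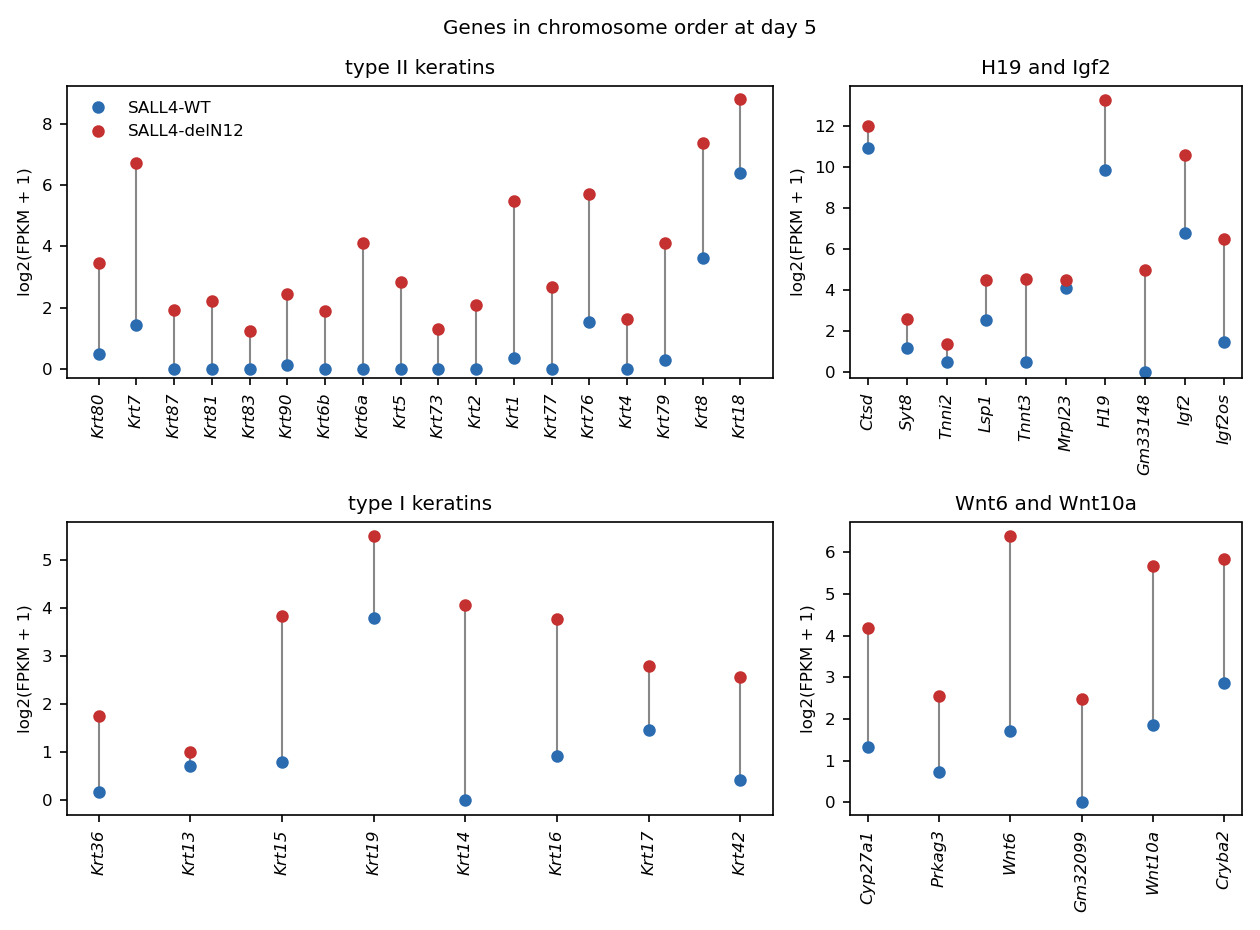
Level at day 5 on the log2(FPKM + 1) scale of each measured gene of 4 neighbourhoods (type II keratins, H19 and Igf2, type I keratins, Wnt6 and Wnt10a), in chromosome order on the x axis, with SALL4-WT in blue, SALL4-delN12 in red and a grey line joining both. Genes under an FPKM of 1 with SALL4-WT (14, 3, 6 and 2 in these neighbourhoods) entered through SALL4-delN12 alone, so that the red point had to be above the blue one, and the gap is under 1 for Mrpl23, Tnni2 and Krt13.

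Genes of WNT signalling, a pathway in which secreted ligands stabilise beta-catenin, differed in both ligands and targets. Of 15 measured ligands and antagonists, 5 were called higher and 2 lower, against 4.45% and 4.7% of all genes, with a median of 0.53. Of the 14 with an FPKM of at least 1 with SALL4-WT, 4 were called higher, against 339 of 12275 of all genes. Wnt6 was at 2.29 and 83.3, a difference of 4.68, Wnt10a at 2.62 and 50.1, and Wnt7b at 0.197 and 16.1. Wnt7a, a ligand outside the list and the naming rules, was at 0.484 and 17. These ligands were thus low with SALL4-WT and well expressed with SALL4-delN12. The ligand genes Wnt4, Wnt5a, Wnt5b, Wnt9a, Wnt10b and Wnt11 of the list were not called. Wnt6 and Wnt10a are neighbours. The stretch chr1:74713574-74893143 of 11 genes was chosen after its values were seen and ends at genes that were called higher. In it 2 genes reached an FPKM of 1 with SALL4-delN12 alone. All 4 that reached it in both libraries were called higher, against 339 of 11677 of all genes. They were Wnt6, Wnt10a and the genes at its ends, the sterol hydroxylase gene Cyp27a1 (1.52 to 17.1) and the crystallin gene Cryba2 (6.27 to 56.6). The count thus depends on where the stretch was cut. The secreted WNT antagonist genes differed in opposite directions, with Sfrp2 lower (115 to 9.20), Dkk2 lower (11.6 to 2.89) and Wif1 higher (13.4 to 32.5).

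Of 12 measured targets of WNT signalling, 4 were called higher and none lower, against 4.45% and 4.7% of all genes, with a median of 0.71. Of the 11 with an FPKM of at least 1 with SALL4-WT, 3 were higher, against 339 of 12275 of all genes. The 4 called higher were the transcription factor gene Sp5 (0.574 to 8.45) and the feedback inhibitor genes Nkd1 (27.2 to 80.5), Notum (61.0 to 127) and Apcdd1 (69.5 to 180). Axin2, the most widely used target, was at 16.4 and 27.9 and Lef1 at 10.9 and 18.5, and neither was called. The GSK3 inhibitor in the medium, which itself activates this pathway, was shared by both cultures.

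Of 8 measured trophoblast genes, 5 were called higher and none lower, against 4.45% and 4.7% of all genes. Of the 6 with an FPKM of at least 1 with SALL4-WT, 3 were higher, against 339 of 12275 of all genes. Besides Krt7, Tfap2c, a factor of the trophoblast and the germ line, was at 1.39 and 21.4, and Hand1, a factor of trophoblast giant cells, at 1.09 and 12.9. The trophoblast factor genes Cdx2 and Eomes were low in both, with Cdx2 listed at 0 and at 2.34, and Eomes at 0.216 and 2.46. Gata2, Gata3 and Tfap2a were not called.

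The PrE list was named in the study from samples of this series and so is no independent evidence. Of its 12 genes, 10 were measured. Of these, 3 were called higher and 1 lower, against 4.45% and 4.7% of all genes, with a median of 0.32. All 4 calls were among the 9 with an FPKM of at least 1 in both libraries. Of all genes at that level in both, 339 of 11677 were called higher and 452 lower. The endoderm factor gene Gata4 was at 0.811 and 1.91, Gata6 at 4.26 and 2.52, the laminin gene Lama1 at 1.65 and 2.35, and the endocytic adaptor gene Dab2 at 7.93 and 6.80. None of these 4 was called. Of the 7 measured genes of a general primitive endoderm list none was called, with a median of 0.28. But the 9.15% called over all genes would itself give few calls in a list of this size. The 3 called higher were the transcriptional coregulator Cited1 (1.58 to 16.4, a difference of 2.75), the homeobox gene Pitx1 (17.9 to 38.3) and the parathyroid hormone receptor gene Pth1r (1.55 to 4.16), and Klf4 was lower (12.8 to 2.45).

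Primitive endoderm gives rise to parietal and visceral endoderm. Of 10 parietal endoderm genes, 4 were called lower and none higher, against 4.7% and 4.45% of all genes, with a median of -0.44. The 4 were the basement membrane genes Col4a1 (140 to 39.6), Col4a2 (162 to 55.9) and Nid1 (191 to 74.1) and the thrombin receptor gene Thbd (6.49 to 2.02), whereas the matrix protein gene Sparc, at 1537 and 1794, was not called. Such genes are also made by mesenchymal or vascular cells, and which cells made them here was not tested. Of the 10 genes of the visceral endoderm list only 2 were measured, too few to describe the list, and both apolipoprotein genes, Apoa1 (0.676 to 11.6) and Apoa2 (1.07 to 3.32), were called higher.

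The promoter of Cited1, on the minus strand at chrX:102252182-102252431 of GRCm38 in RefSeq, is shown because this gene had the largest difference of the PrE list and its promoter carried ATAC-seq peaks of both cultures. ATAC-seq marks open chromatin, and the authors' peak score rises with the strength of the peak. Capitals mark the motifs TATAAA and CCACCC, searched on both strands.
Cited1 promoter: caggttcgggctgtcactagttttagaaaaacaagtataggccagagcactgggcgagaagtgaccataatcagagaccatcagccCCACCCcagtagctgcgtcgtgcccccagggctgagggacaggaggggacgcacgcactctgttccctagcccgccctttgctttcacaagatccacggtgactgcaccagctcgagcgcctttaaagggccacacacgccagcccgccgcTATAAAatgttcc
Over these 250 bases the day 5 ATAC-seq peak scored 170 with SALL4-WT and 231 with SALL4-delN12, and at day 1 it scored 56.4 and 132. This order was uncommon at day 5. Where both cultures had a peak within 2 kb of a start, SALL4-delN12 scored higher at 56 of 358 genes called higher. Over all genes it did so at 448 of 11187. The SALL4 peak of the CUT&Tag at day 6, which maps where SALL4 is bound, was present with SALL4-WT, at a score of 67.2, and not listed with SALL4-delN12, and no peak of H3K27ac, a mark of active regulatory DNA, was listed with either. TATAAA is held by 12.4% of all 32851 promoters of this length and 7.67% of those of the genes compared. It is held by 12.9% of those called higher and 15.35% of those called lower. For CCACCC these shares were 28.1%, 37.2%, 45.2% and 42.0%.

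Among matrix and mesenchymal genes, more were called lower than higher with SALL4-delN12, and many were not called. Of 20 fibroblast matrix genes, 9 were called lower, against 4.7% of all genes, and 3 higher, with a median of -0.79. Fn1, which encodes fibronectin, was at 756 and 87.7, a difference of -3.09. Postn, which encodes periostin, was at 124 and 11.7, and Lox, the collagen cross-linking enzyme, at 36.8 and 3.62. The proteoglycan genes Dcn (8.61 to 1.30) and Lum (11.3 to 2.44), the microfibril gene Fbn1 (38.6 to 9.21) and the collagen genes Col6a1 (260 to 80.7), Col6a2 (147 to 42.6) and Col3a1 (51.4 to 21.4) were lower too. The abundant fibroblast collagen gene Col1a1 went the other way, from 693 to 1424, as did the matrix gene Fbln2 (276 to 727) and the growth factor receptor gene Pdgfrb (8.78 to 21.6). The collagen family as a whole, counted after its values were seen, was split, with 8 genes called higher and 10 lower of 29. Col7a1, the anchoring fibril collagen of epithelial basement membranes, went from 5.86 to 74.1.

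Among 17 measured mesenchymal transcription factor genes, 5 were called lower and none higher, against 4.7% and 4.45% of all genes, with a median of -0.67. Snai2, a repressor of Cdh1 and of other epithelial genes, was at 84.7 and 18.6. Twist1 was at 118 and 51.6, the limb and skeletal factor gene Prrx1 at 41.1 and 12.9, Osr1 at 5.02 and 1.08 and Foxc2 at 4.19 and 1.46. Zeb1 and Twist2 were not called. Of 31 measured Hox genes, which keep the position of a fibroblast along the body, 7 were called lower and none higher. Their median was -0.69. Of the 24 with an FPKM of at least 1 in both libraries, 6 were lower, against 452 of 11677 of all genes. Among those lower were Hoxc8 (19.7 to 4.33) and Hoxc10 (19.6 to 6.09). Over 133 transcription factor genes matched by family name, 12 were called higher and 22 lower, against 4.45% and 4.7% of all genes. Their median was -0.32, and those higher also included the T-box genes Tbx1 (6.27 to 22.5) and Tbx3 (14 to 34.6). Contractile genes gave calls in both directions, with Tagln (15.1 to 60.2) and Myl9 (22.9 to 71.4) higher and the intermediate filament gene Des lower (13.4 to 3.25). Of 9 measured, 3 were called higher and 1 lower. Of the 8 with an FPKM of at least 1 with SALL4-WT, 2 were higher and 1 lower, against 339 and 610 of 12275 of all genes.

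Several BMP targets and antagonists were lower, and no BMP4 was added to either culture. BMP ligands act through SMAD proteins that switch on the Id genes and the inhibitory Smads. Of the 9 measured ligands and receptors, Bmp2 was lower (57.5 to 4.19, a difference of -3.50) and Bmp7 higher (23.8 to 99.0). The 4.7% called lower and 4.45% called higher over all genes would themselves give few calls in 9 genes. Of the 6 target genes, 4 were called lower, against 4.7% of all genes, with a median of -1.25. Id1 was at 548 and 214, Id2 at 191 and 73.5, Id3 at 591 and 267 and Smad6 at 22.0 and 7.36, whereas Smad7 (11.7 and 17.4) and Bambi (9.05 and 15.9) were not called. Of 9 secreted antagonists, which bind the ligands, 5 were called lower and none higher, with a median of -1.48. Of the 8 with an FPKM of at least 1 in both libraries, 4 were lower, against 452 of 11677 of all genes. The 5 called lower included Grem1 (27.1 to 9.08), Fst (10.8 to 3.05), Fstl3 (11.8 to 3.07) and Bmper (3.48 to 0.315). Of 11 genes of the TGF-beta and activin pathway, the activin subunit gene Inhbb (47.9 to 101) was among those higher, and the coreceptor gene Tgfbr3 (7.47 to 1.38) and the latency protein gene Ltbp1 (15.4 to 4.02) were lower, with a median of -0.57.

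**Figure D3:**
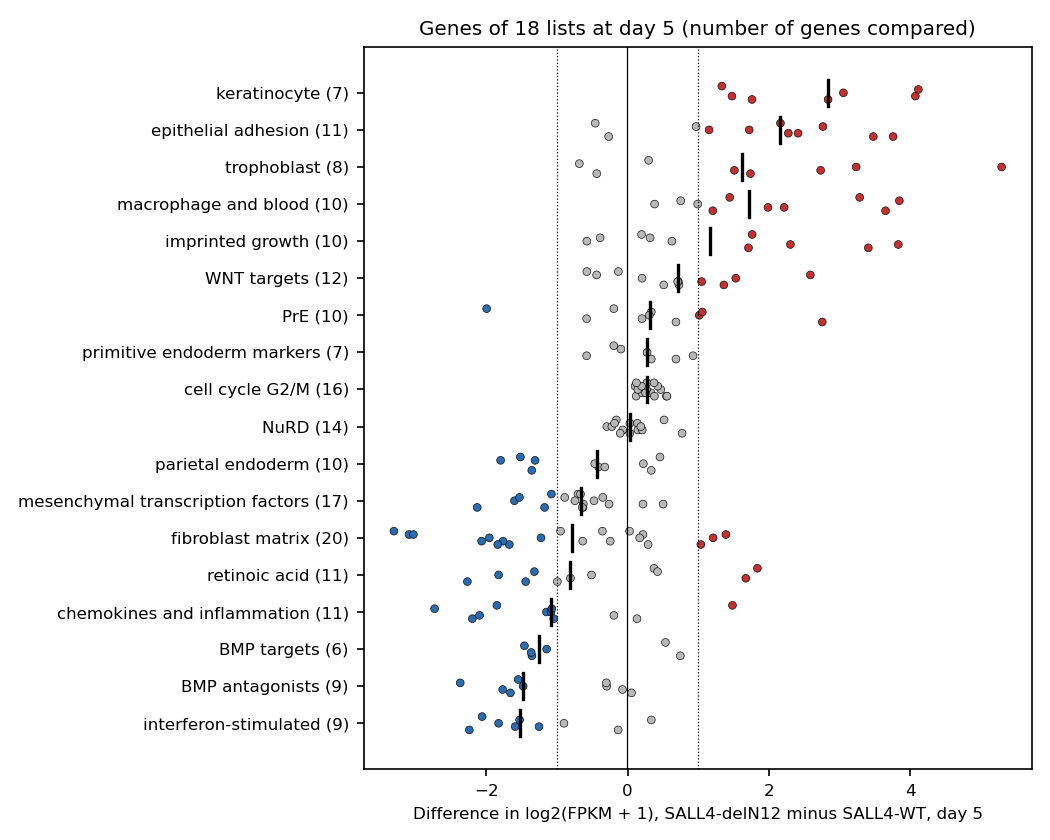
Difference in log2(FPKM + 1), SALL4-delN12 minus SALL4-WT at day 5, for each measured gene of the main gene lists, 1 list a row, with genes called higher in red, genes called lower in blue, others in grey and a black tick at the median of each list. Most epithelial genes lie to the right of 0, but 3 of the 11 were under an FPKM of 1 with SALL4-WT and so had to. Of the other 8, 5 were called higher. BMP targets and antagonists and interferon-stimulated genes lie mostly to the left, with medians of -1.25, -1.48 and -1.53.

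Inflammatory genes were lower. Of 9 interferon-stimulated genes, which cells switch on after sensing virus, 6 were called lower and none higher, against 4.7% and 4.45% of all genes. Their median was -1.53. The ubiquitin-like protein gene Isg15 was at 25.3 and 6.42, the RNA-binding effector gene Ifit1 at 28.3 and 5.21 and the oligoadenylate synthetase-like gene Oasl2 at 11.3 and 3.08. The same list was lower at day 1 for all 9 genes, against 5.17% of all genes, and Isg15 was at 319.9 and 22.0. But at day 9 Isg15 was at 12 and 62.8 and 4 of the list were called higher, against 5.74% of all genes. Of 11 chemokine and inflammation genes, 8 were called lower and 1 higher, with a median of -1.08. Of the 9 with an FPKM of at least 1 in both libraries, 6 were lower, against 452 of 11677 of all genes. The chemokine genes Cxcl1 (45.4 to 5.99), Cxcl12 (46.4 to 9.34) and Ccl2 (168 to 81.2) were lower, and the iron-binding acute phase gene Lcn2 was higher (114 to 321).

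Genes of macrophages and other blood cells were higher with SALL4-delN12. The fibroblasts had been made from embryos after removal of the head, limbs, tail and inner organs. Of 12 macrophage and blood genes 10 were measured. Of these, 7 were called higher and none lower, against 4.45% and 4.7% of all genes, with a median of 1.72. The complement genes C1qa (3.03 to 56.9), C1qb (4.59 to 53.5) and C1qc (2.44 to 42.2) and the macrophage receptor gene Csf1r (1.17 to 9.09) were among them. The macrophage surface gene Adgre1 (5.74 and 7.79) and the lysozyme gene Lyz2 (158 and 266) were not called. The summed FPKM of the list was 210 with SALL4-WT and 537 with SALL4-delN12 at day 5, and no gene of it was listed at 0 in either library. At day 1 the sums were 427 and 444, and C1qa was at 16.1 and 45.8. The alpha globin genes Hba-a1 (0.598 to 102) and Hba-a2 (0.356 to 105), near-identical copies whose reads can be split between them, were higher too. The part of such cells in the other differences was not tested. The nuclear RNA Malat1 was at 148 and 78.8 and Neat1 at 9.94 and 5.31, and neither was called.

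Of the pluripotency list, 5 of 20 genes were measured. Fgf4 (0.0441 to 2.09) and Tfcp2l1 (0.122 to 3.23) were called higher at low levels and Klf2 was lower. Esrrb, a pluripotency and trophoblast factor gene that other arms of the study delivered by virus, was at 1.85 and 21.0. Of 11 genes of retinoic acid signalling, 4 were called lower, including the receptor gene Rarb (10.7 to 1.43), and 2 higher, the uptake receptor gene Stra6 (76.2 to 275) and the synthesis enzyme gene Aldh1a2 (0.974 to 5.30), with a median of -0.81. Over all genes 4.7% were called lower and 4.45% higher. Of the AP-1 factor genes, Fos (85.4 to 32.9), Fosb and Junb (259 to 106) were lower and Atf3 (2.26 to 5.84) higher.

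Several broad programmes gave few or no calls, in lists of a size at which the 9.15% called over all genes would itself give few. None of 16 genes of the G2 and M phases was called, with a median of 0.27, and of 16 genes of the G1 and S phases only Ccnd1, a cyclin of cell cycle entry, was (163 to 386). None of 12 cholesterol synthesis genes, 10 genes of the unfolded protein and stress responses or 7 DNA methylation genes was called, and of 12 p53 and senescence genes only the cell cycle inhibitor gene Cdkn2b was lower (74.3 to 27.7). The 13 mitochondrial genome genes measured gave no call either, with a median of 0.17.

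By size of difference, where one library or the other reached an FPKM of 5, several of the largest rises and falls can be named. After the 2 globin genes, the 15 largest rises included the surface antigen gene Psca (0.546 to 84.9), Krtdap and Cartpt, which encode an epidermal and a neuroendocrine secreted peptide (both listed at 0 with SALL4-WT, and at 52.4 and 29.2), Krt1 (0.273 to 43.7), the epithelial protease gene Tmprss2 (0.537 to 45.4), the cardiac troponin gene Tnnt2 (0.359 to 29.0) and the lens crystallin gene Cryaa (6.99 to 152). The 15 largest falls included the copper carrier gene Cp (31.6 to 1.14), the matrix gene Spon2 (16.9 to 0.349), the neurexin ligand gene Nxph3 (16.5 to 0.422), the mineralisation enzyme gene Alpl (38.4 to 2.45) and the mineralisation inhibitor gene Mgp (105 to 10.1), and the complement inhibitor gene Serping1 (203 to 22.1). In FPKM itself the largest decreases were at abundant genes, with the growth related gene Tpt1 at 3647 and 2031 and the retinoic acid binding protein gene Crabp1 at 2721 and 1554, neither of them called, and the annexin partner gene S100a10 lower, at 1095 and 454.

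The largest fall, of the ribosomal protein gene Rps28 (596 to 10.6, a difference of -5.69), was not shared by its family, since none of the other 74 of 75 cytosolic ribosome genes was called. Rps28 varied between 42.1 and 861 over the other 15 libraries, so the SALL4-delN12 library at day 5 was the lowest of all. At day 1 it was at 861 and 147, and at days 9 and 11 at 475 and 584, and 418 and 556. Ribosomal protein genes have processed copies elsewhere in the genome, and whether shared reads bear on this value was not tested.

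The promoter of Cp is shown because its RNA was lower and its ATAC-seq and SALL4 peaks scored higher with SALL4-delN12. It lies on the plus strand at chr3:19956804-19957053 of GRCm38 in RefSeq, and the capitals mark the AP-1 motif TGANTCA, searched on both strands.
Cp promoter: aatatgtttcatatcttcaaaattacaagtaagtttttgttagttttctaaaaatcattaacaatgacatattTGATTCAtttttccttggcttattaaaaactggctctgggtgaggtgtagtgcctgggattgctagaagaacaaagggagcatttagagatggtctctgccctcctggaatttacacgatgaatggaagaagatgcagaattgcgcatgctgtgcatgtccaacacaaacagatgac
Over it the day 5 ATAC-seq peak scored 85.3 with SALL4-WT and 212 with SALL4-delN12, and the SALL4 peak at day 6 scored 53.2 and 240, while no H3K27ac peak was listed with either and its RNA went from 31.6 to 1.14. Where both cultures had a day 5 ATAC-seq peak within 2 kb of a start, SALL4-delN12 scored higher at only 30 of 474 genes called lower. TGANTCA is held by 6.75% of all promoters of this length, by 5.55% of those of the genes compared with a promoter in RefSeq, by 8.88% of those called higher and by 12.5% of those called lower. A match of letters is a description and shows no binding.

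Chromatin at the promoters was a readout that the RNA comparison did not use. An annotated start with a peak within 2 kb to either side was counted for 550 genes called higher, 585 called lower and 12271 of all genes compared. At day 5 an ATAC-seq peak was listed at 94.2% of all genes with SALL4-WT and at 91.8% with SALL4-delN12. For genes called higher the shares were 77.3% and 69.1%, and for genes called lower 91.3% and 81.9%. A peak in the SALL4-delN12 library alone was listed at 22 genes called higher (4%), 5 called lower (0.855%) and 75 of all genes (0.611%). A peak in the SALL4-WT library alone was listed at 67 (12.2%), 60 (10.3%) and 376 (3.06%). Genes of both directions thus had peaks of either library alone at a higher share than all genes. For SALL4-delN12 alone, the share of genes called lower rested on only 5 genes. The SALL4-WT library had more peaks in all, 98422 against 89524, with a median score of 119 against 98.5, and with equal numbers of top peaks, an alternative chosen after seeing the data, the shares with a peak of SALL4-WT alone were 11.1%, 9.40% and 2.77%.

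CUT&Tag of day 6, from files in which the authors had merged replicates, gave a similar order. SALL4 peaks were listed near 83.9% of all genes with SALL4-WT and 66.3% with SALL4-delN12, near 56.9% and 39.3% of genes called higher, and near 72.0% and 52.0% of genes called lower. Genes with different RNA thus had fewer SALL4 peaks at their starts than all genes in both cultures. H3K27ac peaks were listed near 37.6% and 63.6% of genes called higher, 56.4% and 79.3% of genes called lower and 81.1% and 89.5% of all genes, but 19841 peaks were deposited for SALL4-WT and 45599 for SALL4-delN12. With the same number of top peaks from each the direction turned, to 37.6% and 31.1%, 56.4% and 49.9%, and 81.1% and 75.9%. With scores of at least 100 the direction was that of all peaks, 16.2% and 46.7% of genes called higher. Where both cultures had a peak, the SALL4-delN12 score was the higher at 168 of 183 genes called higher, 292 of 315 called lower and 9484 of 9769 of all genes.

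The same comparison could be made at days 1, 9 and 11, with libraries of their own. Not every gene called at day 5 reached the minimum FPKM on another day, so shares are over those that did. Of 440 genes called higher at day 5 and measured at day 1, 233 were called higher there (53%, and 48.0% of the genes called higher at day 1, against 3.91% of all genes). At day 9 they were 375 of 539 (69.6% and 49.9%, against 5.74%) and at day 11 they were 297 of 526 (56.5% and 35.3%, against 6.22%). Of 524 genes called lower at day 5 and measured at day 1, 251 were called lower there (47.9% and 39.1%, against 5.17%). At day 9 they were 437 of 592 (73.8% and 60.5%, against 5.51%) and at day 11 they were 370 of 588 (62.9% and 45.5%, against 6.02%). The share was highest at day 9 for both directions. Whether the libraries of successive days came from one infection is not given in the sources used here.

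Genes followed several courses. Krt7 and Krt8 already differed at day 1, where Krt7 was at 1.78 and 78.0 and Krt8 at 9.79 and 141. H19 differed less at day 1 (450 and 1440) and stayed high later (623 and 8926 at day 9, and 1038 and 9920 at day 11). Wnt6 was at 3.70 and 17.3 at day 1 and at 5.08 and 134 at day 9. Among these genes the difference was thus present from the first day and, for H19 and Wnt6, larger from day 5. Bmp2 was lower at every day, from 48.1 and 1.20 at day 1 to 45.4 and 3.90 at day 11, whereas Id1, lower at days 1, 5 and 9, was at 373.6 and 261 at day 11 and not called. Fn1 was at 467 and 218 at day 1 and at 958 and 87.4 at day 11. By calls the fibroblast matrix list went the other way at day 1, with 8 of 20 called higher and 3 lower, against 3 higher and 9 lower at day 5. Over all genes 3.91% were called higher and 5.17% lower at day 1. Its summed FPKM was 2632 with SALL4-WT and 4460 with SALL4-delN12 at day 1, and 4350 and 4098 at day 5. Of the measured PrE genes, 2 of 10 were called higher on day 1 (3.91% of all genes were), 3 of 10 on day 5 (4.45%), 7 of 12 on day 9 (5.74%) and 10 of 12 on day 11 (6.22%), with 1 called lower on each day but the last, and Gata4 went from 0.811 and 1.91 at day 5 to 0.964 and 9.48 at day 9 and 1.51 and 29.3 at day 11.

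**Figure D4:**
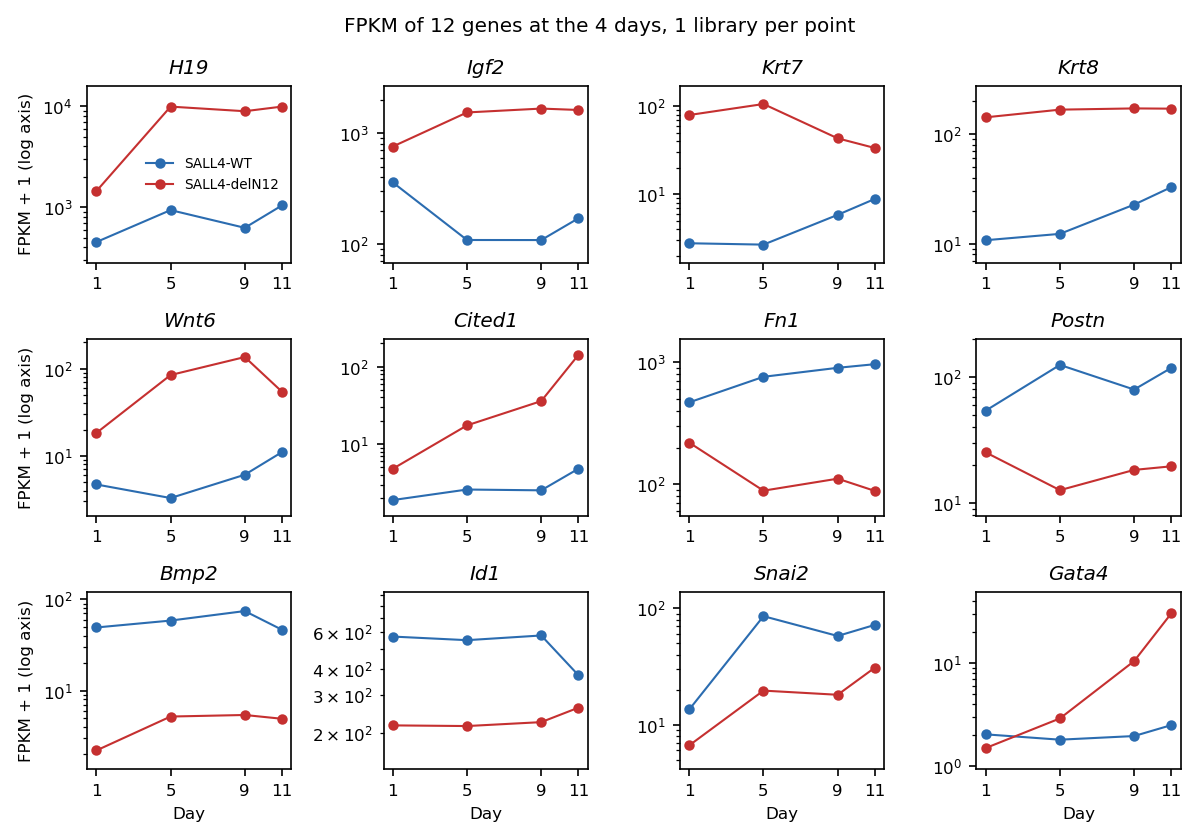
FPKM + 1 on a log axis against day (1, 5, 9 and 11) for H19, Igf2, Krt7, Krt8, Wnt6, Cited1, Fn1, Postn, Bmp2, Id1, Snai2 and Gata4, with SALL4-WT in blue, SALL4-delN12 in red and 1 point for each library. Krt7 and Krt8 are apart at day 1, while Gata4, at 1.91 against 0.811 at day 5, reaches 29.3 against 1.51 at day 11.

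In a separate arm, fibroblasts carrying Jdp2, Glis1, Esrrb and Sall4, together called JGES, grew with or without BMP4 at 10 ng/ml, and none of its libraries entered the comparison above. At day 5 of that arm 8.35% of genes were called higher with BMP4 and 12.5% lower. Of the 577 genes called higher with SALL4-delN12, 434 were measured there, and 132 were higher with BMP4 (30.4%, and 10.9% of those higher with BMP4) and 71 lower (16.4% and 3.91%). Of the 610 called lower with SALL4-delN12, 501 were measured, and 126 were higher with BMP4 (25.1% and 10.4%) and 53 lower (10.6% and 2.92%). The share higher with BMP4 was above its background for genes of both directions, and the share lower with BMP4 was above it for genes called higher and below it for genes called lower.

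Several matrix and BMP genes differed in opposite directions in the 2 comparisons. Fn1 was at 141 without BMP4 and 430 with it, Postn at 11.6 and 219 and Bmp2 at 1.59 and 5.29, each higher with BMP4 and lower with SALL4-delN12. Id1 was at 75.7 and 243. H19 (2745 and 7581), Igf2 (412 and 2187), Krt8 (9.07 and 33.3) and Wnt6 (51.7 and 191.5) were higher in both. Krt7 was at 2.18 and 2.64 and not called with BMP4, and Tfap2c, higher with SALL4-delN12, was lower with BMP4 (9.24 to 0.659). None of the 12 PrE genes was called higher with BMP4 at day 5 and 1 was called lower. The 8.35% and 12.5% called over all genes would themselves give few calls in a list of this size.

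**Figure D5:**
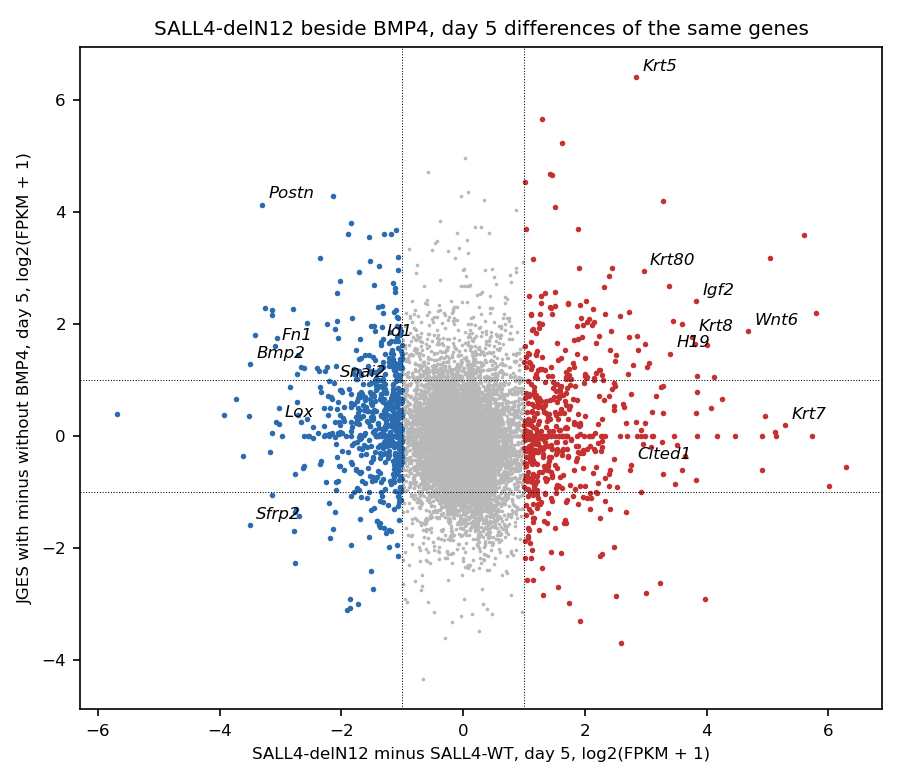
Each point is 1 gene, with the day 5 difference in log2(FPKM + 1) between SALL4-delN12 and SALL4-WT on the x axis and that between JGES with and without BMP4 on the y axis. Red and blue mark genes called higher and lower with SALL4-delN12, and dotted lines mark a difference of 1. Fn1 and Postn lie to the left and above 0, and H19, Igf2 and Wnt6 to the right and above 0.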

How the data were processed

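Values were the FPKM per gene that the authors deposited, made per the labels and methods with Trim Galore 0.6.4, HISAT2 2.2.1 on mm10 and StringTie 2.2.1, with 1 library per form and day and no depth. Peak lists deposited by the authors (Bowtie2 2.4.5, SAMtools 1.16.1, MACS 1.4.2) give a score per peak, of at least 50. The study's read-based comparison, GFOLD, needs reads and was not used. Here the difference in log2(FPKM + 1) was taken, with a minimum FPKM of 1 in either library and a call at a difference of 1, in Python 3.11.15 (pandas 2.3.3, numpy 2.4.6, matplotlib 3.10.9) and tested on simulated data. A pseudocount of 1 understates changes of low genes. Positions came from GENCODE and RefSeq for 33654 symbols. Genes were named from 51 lists, from the 15 largest rises and falls at an FPKM of at least 5, the 8 largest in FPKM and the 10 largest among factor families, or where days 9 and 11 turned. Wnt7a and some genes of the neighbourhoods and families were named outside these rules. The members and lists were chosen with earlier results of these data known. Other pseudocounts, filters, thresholds, scalings and peak scores were tried. Some genes of the lists are not reported here by name.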

Additional observations from a re-analysis of the deposited data

Results flagged for a closer look

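A gene was singled out where the difference between SALL4-delN12 and SALL4-WT at day 5 was opposite in direction to that at both later days, and 3 genes were. These differences between days were not tested, as each day has 1 library a side. Slc36a2, an amino acid transporter gene, was higher at day 5 by 2.04 on the log2(FPKM + 1) scale (3.11 to 15.9 FPKM), with differences of -1.16 at day 9 and -1.40 at day 11. Gldc, the glycine decarboxylase gene, differed by -1.37 at day 5 (6.44 to 1.89), 1.43 at day 9 and 1.52 at day 11. Rgcc, a cell cycle regulator gene, differed by 1.09 at day 5 (2.05 to 5.49), -2.34 at day 9 and -1.53 at day 11.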

How the results depend on the processing

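With 577 genes called higher and 610 lower, a pseudocount of 0.1 gave 944 and 970, a difference of at least 0.58 gave 1304 and 1470 and one of at least 2 gave 155 and 102, where 60.3% of calls were higher instead of 48.6%. A minimum FPKM of 5 left 372 higher. A pseudocount of 0.5, median-ratio or quantile scaling and protein-coding genes alone stayed within 1.5 times both counts, and leaving out the minimum changes nothing, because no gene under 1 in both libraries can differ by 1. The PrE count of 3 fell to 1 at a difference of 2, was 4 at a pseudocount of 0.1, where Gata4 was called (1.14), and at a difference of 0.58, and 2 with quantile scaling, where Pth1r was not called (0.98), and with a minimum FPKM of 5. At promoters of genes called lower, ATAC-seq peaks of SALL4-WT alone went from 60 genes to 120 with scores of at least 100, and over all genes from 376 to 817. For H3K27ac, equal numbers of peaks, chosen after seeing the data, turned peaks of SALL4-delN12 alone from 167 to 42 genes called higher and 149 to 45 called lower, and those of SALL4-WT alone from 24 to 78 and from 15 to 83, while scores of at least 100 took the latter to 8 and 9. The causes were not tested. Of 466 named genes none changed direction, 25 gained a call at a pseudocount of 0.1, 13 at 0.5, 2 with median-ratio and 5 with quantile scaling, where 1 lost it and 1 was not tested. No paired analysis was possible because each group had 1 library, and for the same reason no library could be left out and counting error could not be separated from differences between cultures.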

Other observations

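For several of the genes above, the 15 libraries outside the day 5 comparison, of other days and factors, can be set beside it as values. H19 was at 934 with SALL4-WT and 9915 with SALL4-delN12 at day 5, and between 450 and 9920 in the others, with a median of 3134. Wnt6, at 2.29 with SALL4-WT at day 5, was between 3.70 and 276 in the others, and Wnt10a, at 2.62, between 4.55 and 212, so that the SALL4-WT library was the lowest of all 17 for both. Psca, at 84.9 with SALL4-delN12, was between 0.673 and 41.7 elsewhere, and Krt7, at 104, between 1.32 and 78.0, so that the SALL4-delN12 library was the highest for both. Snai2, at 84.7 with SALL4-WT, was between 4.68 and 71.1. JGES cells at day 0 had 3696 for H19, 1176 for Igf2, 71.4 for Wnt6 and 708 for Fn1, while Bmp2 was at 4.71, Cp at 1.16 and Sfrp2 at 6.35, against 57.5, 31.6 and 115 with SALL4-WT at day 5.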
